A study of Rattus norvegicus with 10 samples.

Results

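Mast cell genes were followed in the abdominal aorta of rats of 2 inbred strains, Brown Norway (BN) and LOU. The 10 genes chosen were the granule proteases Cpa3, Cma1, Mcpt2, Tpsab1 and Tpsb2, the receptor genes Kit, Fcer1a and Ms4a2, the histamine-forming enzyme gene Hdc and the granule proteoglycan gene Srgn. They were taken by gene symbol, and every probe set annotated with 1 of these symbols was read. Of the 10, 9 had a probe set on the array and together they had 10 probe sets, out of 10411 named genes and 15866 probe sets in all. Mcpt2 matched no probe set by symbol and was not analysed here under that name. Total RNA was hybridised to Affymetrix 3′ expression arrays, 5 for each strain, and none of the rats had been treated. The age given for both strains was 5 weeks, although the growth notes speak of keeping rats until at most 18 weeks. The labels name only the abdominal aorta as tissue, while the extraction notes also mention the thoracic part, and they leave unsaid whether every array stands for a separate rat. The p-values therefore measure only how far these arrays scatter, which may be technical, and 5 arrays per strain limit the precision. Per the series title, the strains were compared to learn about the genetics behind arterial traits of the BN rat.

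Mast cells are tissue-resident cells of the immune system that sit beside small vessels, nerves and fat, and in arteries they are found mainly in the adventitia. They store histamine, proteases of the tryptase, chymase and carboxypeptidase families and heparin bound to a proteoglycan core in granules, and release them when antigen crosslinks IgE on the high affinity receptor. Their survival depends on stem cell factor, which binds the receptor encoded by Kit. Rats have many chymase-like proteases that are encoded side by side and resemble each other. Cpa3, the tryptases and the chymases are restricted to mast cells and close relatives, whereas Srgn is also used by platelets, macrophages and endothelium.

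The samples had the make-up of artery wall with tissue around it. All 8 smooth muscle markers measured lay above background on every array. Background on each array was set by its 45 control probe sets for bacterial genes, at their 95th percentile, and it ran from 21.2 to 49.2 signal units on the BN arrays and from 26.2 to 33.3 on the LOU arrays. LOU array 1 stood apart in immune markers, with a summed macrophage marker signal of 4616.2 against 1423.3 to 1976.6 on the other LOU arrays. BN array 3 stood apart in nerve markers, with a summed signal of 12715.5. BN array 5 had the lowest summed adipocyte marker signal of the 10 arrays, 2942.

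Most of the mast cell genes were at or near the background of the arrays. Of the 10 probe sets, 2 (Cpa3 and Srgn) were above background on all 10 arrays, 7 on some arrays and 1 (Tpsab1) on none, while 63.0% of all probe sets were above background on all 10. Without Cpa3 and Srgn, 31 of 80 single signals were above background. The number of mast cell probe sets above background was 2 to 6 of 10 on the BN arrays and 5 to 7 on the LOU arrays. Background was higher on BN arrays 1 to 3 than on any LOU array. An equal signal could thus be above background in LOU and not in BN. With a fixed level of 50 on every array, which does not follow each array's controls, the counts were 1 to 4 and 2 to 5. Whole aorta gives RNA of all its cells, so fewer mast cells and less of a transcript in each cannot be told apart.

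**Figure D1:**
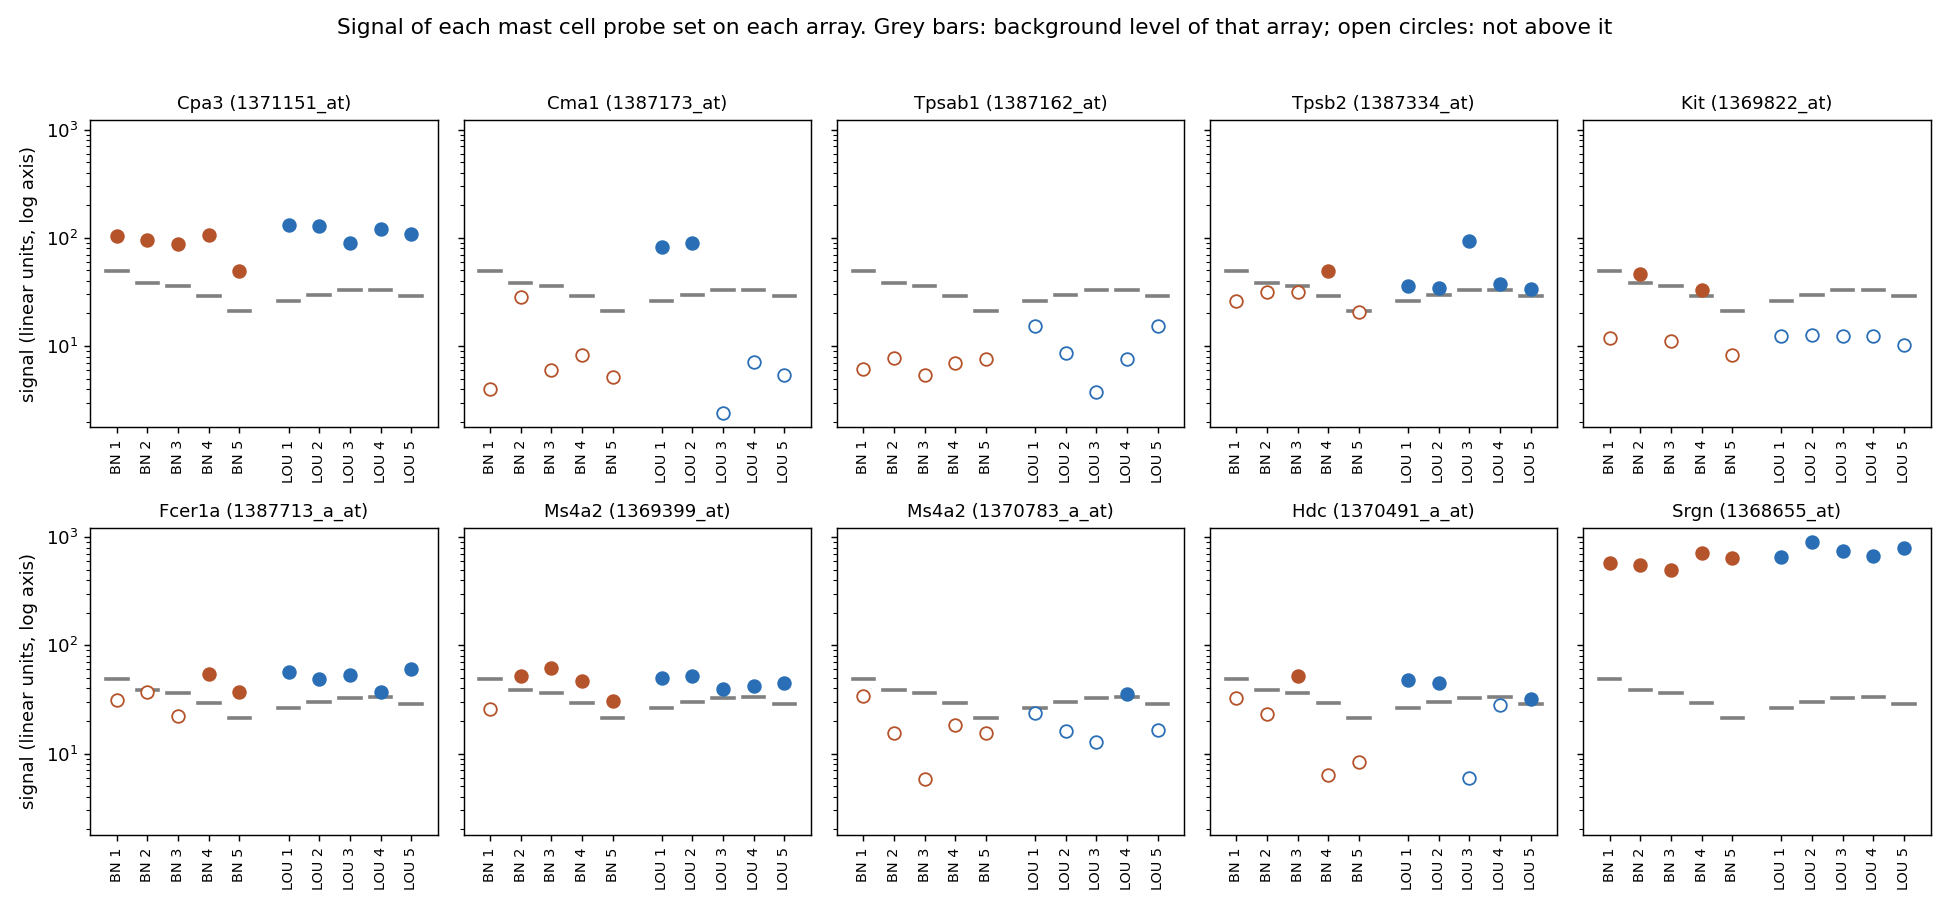
Signal of each mast cell probe set on each array, on a log axis, with BN arrays in orange and LOU arrays in blue; the grey bar is that array's background level, and open circles are signals not above it. Cpa3 and Srgn have filled circles on all 10 arrays, Tpsab1 on none, and Cma1 only on LOU arrays 1 and 2.

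The start regions of 3 members are shown because Cpa3 and Cma1, a carboxypeptidase and a chymase stored in the same granules, both hold a GATA-type match close to the gene start, and Srgn, the member with a signal far above background, does not. Sequences are from RefSeq, 250 bases before to 50 after the annotated gene start, read 5′ to 3′ along the gene. Capitals mark matches to the GATA-type letters AGATAA or else AGATAG or else TGATAA or else TGATAG, as well as to the E-box letters CACGTG or else CACATG or else CATGTG, on both strands. No match of one kind overlapped a match of the other in these 3 sequences.
Cpa3 promoter, GRCr8 chr2:104673188-104673487, minus strand: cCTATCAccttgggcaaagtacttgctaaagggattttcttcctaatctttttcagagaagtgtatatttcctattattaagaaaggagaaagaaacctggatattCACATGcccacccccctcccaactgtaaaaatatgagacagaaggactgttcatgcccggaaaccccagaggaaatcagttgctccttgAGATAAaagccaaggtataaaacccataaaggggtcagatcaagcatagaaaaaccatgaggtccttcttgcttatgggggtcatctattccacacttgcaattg
Cma1 promoter, GRCr8 chr15:33390084-33390383, minus strand: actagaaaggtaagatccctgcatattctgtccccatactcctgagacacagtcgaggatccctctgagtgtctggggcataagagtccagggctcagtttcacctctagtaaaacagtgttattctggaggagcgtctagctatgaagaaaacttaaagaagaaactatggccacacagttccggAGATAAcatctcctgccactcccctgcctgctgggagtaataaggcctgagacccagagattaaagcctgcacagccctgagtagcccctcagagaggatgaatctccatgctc
Srgn promoter, GRCr8 chr20:31000054-31000353, minus strand: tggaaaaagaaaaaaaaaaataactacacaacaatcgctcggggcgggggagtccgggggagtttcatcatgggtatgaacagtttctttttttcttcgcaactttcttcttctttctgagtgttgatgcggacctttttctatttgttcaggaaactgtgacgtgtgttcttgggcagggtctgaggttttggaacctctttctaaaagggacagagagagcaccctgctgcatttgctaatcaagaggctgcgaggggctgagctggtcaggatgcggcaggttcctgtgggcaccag
GATA factors and MITF, an E-box factor, are the regulators usually named for this lineage. Of the 8 members with an entry in the promoter table, 3 held a GATA-type match (Cpa3, Cma1 and Fcer1a) and 3 an E-box match (Cpa3, Tpsb2 and Fcer1a). Among all 33469 windows of this length, 30.3% held the first and 19.7% the second. The granule protease genes Tpsab1 and Tpsb2 held no GATA-type match, nor did Kit and Hdc. The 3 sequences shown are therefore chosen examples and do not set granule proteases apart from Srgn. In Cpa3 the match AGATAA began at position -55 from the gene start, and in Cma1 at -64. These are letter matches and say nothing of binding.

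No mast cell gene passed the test of BN against LOU. limma's test over 15866 probe sets, adjusted by Benjamini-Hochberg with a threshold of 0.05, called 0 of the 10 mast cell probe sets, and 0.788% of all probe sets. At an unadjusted p under 0.05 there were 2, Srgn and Fcer1a, where 13.3% of all probe sets reached that level. That number was 0 with median centring, with the replicate number as a block, and in fits that left out LOU array 2 or 5, BN array 1, 2 or 3, or the pair of BN array 3 with LOU array 1. In none of the 10 did the BN signals lie apart from the LOU signals, against 4.18% over all probe sets. Of the 10, 9 had a negative log2 difference, which is lower in BN, against 53.5% of all probe sets. The median was −0.42 on the log2 scale, beside −0.03 over all probe sets. For most members this sign rests on signals near background, and the members share arrays, so it is given as a description only. Markers of adventitial fibroblasts, the cells of the layer where arterial mast cells mostly lie, lay on the same side. Read from the brightest probe set of each gene, all 11 had a negative difference, with a median of −0.59. Of their 17 probe sets 2 were called lower in BN, against 0.542% of all probe sets. Both read Ogn, whose other probe sets gave 0.20 and −0.27 and were not called. The summed signal of the 11 markers was 10828.2 to 15136.3 on the BN arrays and 16444.2 to 26895.6 on the LOU arrays. Macrophage markers were also lower in BN in 9 of 10 genes (median −0.26), and lymphocyte markers in 9 of 12 (median −0.24). No probe set of these 2 lists was called. Nerve markers lay on the other side, with 0 of 10 genes lower (median 0.76), as did smooth muscle markers, with 1 of 8 (median 0.17). The part of adventitia or of other immune cells in the members' differences was not tested.

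Cpa3 encodes carboxypeptidase A3, a metalloprotease of the mast cell granule, and was the 1 granule protease among the members that was above background on all 10 arrays. Its signals on BN arrays 1 to 5 were 103, 95.3, 88.2, 105.4 and 49.4. The LOU arrays, again from 1 to 5, gave 131.9, 128.5, 88.9, 119.6 and 107.9. The strains overlapped through LOU array 3, at 88.9, while the other 4 LOU arrays lay above every BN array and BN array 5 lay far below all others. The mean was 88.3 ± 22.8 (SD, n = 5) in BN and 115 ± 17.5 (n = 5) in LOU. The log2 difference of BN minus LOU was −0.42, with a 95% confidence interval from −0.91 to 0.07 (limma adjusted p = 0.453). Without BN array 5 the difference was −0.22 (limma adjusted p = 0.512).

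Cma1 encodes a serine protease of the chymase family. Its signals were 4, 28.6, 6, 8.3 and 5.2 on BN arrays 1 to 5, none above background. On LOU arrays 1 to 5 they were 81.7, 89.5, 2.4, 7.2 and 5.4. LOU arrays 1 and 2 were thus above background and the other 3 LOU arrays were as low as 4 of the BN arrays, with BN array 2, at 28.6, in between. The fitted difference was −0.91, with an interval from −3.25 to 1.44 (limma adjusted p = 0.753), and no bound on a fold can be given. Without LOU array 1 it was −0.29 and without LOU array 2 it was −0.25. LOU arrays 1 and 2 also had the highest macrophage marker sums of their strain, 4616.2 and 1976.6, where the other LOU arrays ran from 1423.3 to 1894.3. The highest sum on a BN array was 2100.1. The part of other immune cells in the Cma1 signals was not tested.

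The tryptase genes Tpsab1 and Tpsb2 encode trypsin-like proteases that assemble into heparin-bound tetramers, and they neighbour each other in the genome. Tpsab1 was not above background on any array, with signals of 5.4 to 7.8 in BN and 3.8 to 15.3 in LOU, so no level can be read. Tpsb2 signals on BN arrays 1 to 5 were 26.1, 31.5, 31.4, 49.9 and 20.5, and only BN array 4 was above background. The 5 LOU signals, from array 1 to 5, were 36, 34.7, 93.2, 37.6 and 34, and all 5 were above background. That level was higher on BN arrays 1 to 3, at 49.2, 38.4 and 36, than on the LOU arrays, at 26.2 to 33.3. LOU array 3 stood far above the others of its strain, and BN array 4 was higher than the other 4 LOU arrays, so the strains overlapped. The difference was −0.50, with an interval from −1.22 to 0.22 (limma adjusted p = 0.555), and without LOU array 3 it was −0.22.

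Fcer1a and Ms4a2 encode the IgE-binding alpha chain and the signal-amplifying beta chain of the high affinity IgE receptor. Fcer1a signals were 31.2, 37.4, 22.4, 54.1 and 37.2 on BN arrays 1 to 5, of which arrays 4 and 5 were above background. On LOU arrays 1 to 5 they were 57.1, 48.6, 53.2, 37.4 and 60.1, all above background. The same signal of 37.4 was above the background of 33.3 on LOU array 4 and below that of 38.4 on BN array 2. Arrays of BN were mostly lower, but BN array 4 was higher than 3 of the LOU arrays. The mean was 36.5 ± 11.6 (SD, n = 5) in BN and 51.3 ± 8.88 (n = 5) in LOU, a log2 difference of −0.53 with an interval from −1.04 to −0.02 (limma unadjusted p = 0.0437, adjusted p = 0.36).

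Ms4a2 was read by a pair of probe sets, and neither differed between the strains beyond the spread of the arrays. The first gave 25.9, 52.4, 61.4, 47.3 and 30.8 on BN arrays 1 to 5. Its LOU signals, from array 1 to 5, were 50.2, 51.8, 39.9, 42.2 and 44.5. The BN signals spread around the LOU signals on both sides, with a difference of −0.14 (interval −0.66 to 0.39, limma adjusted p = 0.845). The second Ms4a2 probe set was above background on LOU array 4 alone, at 35.6, and its other signals ran from 5.8 to 33.9. Fcer1g, the gamma chain that this receptor shares with Fc receptors of macrophages and platelets, was above background on all 10 arrays and gave 262 ± 28.1 in BN and 294 ± 121 in LOU (n = 5 each, log2 −0.10, limma adjusted p = 0.885). The highest Fcer1g signal, 510.8, was in LOU.

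Kit, the receptor tyrosine kinase for stem cell factor, was the 1 member with a positive difference. Its signals were 11.8, 46.6, 11.1, 32.8 and 8.2 on BN arrays 1 to 5. On the 5 LOU arrays they ran from 10.2 to 12.6. BN arrays 2 and 4 were above background and the other 8 arrays were not, and the low BN arrays were level with LOU. The fitted difference was 0.55, with an interval from −0.44 to 1.54 (limma adjusted p = 0.638), and the signals give no bound on a fold. Without BN array 2 it was 0.20, without BN array 4 it was 0.32, and with signals under 32 set to 32 it was 0.12. Kitlg, which encodes stem cell factor itself, was above background on all 10 arrays in its brightest probe set, at 139 ± 18.6 in BN and 151 ± 34.3 in LOU (n = 5 each, log2 −0.10, limma adjusted p = 0.849).

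Hdc encodes histidine decarboxylase, which makes histamine. Its signals were 32.7, 23, 52.3, 6.3 and 8.4 on BN arrays 1 to 5 and 47.5, 44.9, 5.9, 28.4 and 31.7 on LOU arrays 1 to 5. BN array 3 and LOU arrays 1, 2 and 5 were above background, and the strains covered nearly the same range. BN array 1, at 32.7, was below its background of 49.2, while LOU array 5, at 31.7, was above its background of 28.8. The difference was −0.49 with an interval from −2.08 to 1.10 (limma adjusted p = 0.811), wide enough to hold a large change in either direction. It was −0.10 without BN array 4, −0.21 without BN array 5, −0.27 and −0.29 without LOU array 1 or 2, −0.87 without BN array 3 and −1.02 without LOU array 3.

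Srgn encodes serglycin, the proteoglycan core to which heparin and the granule proteases bind, and it was the member read best. Its signals were 583.6, 550.9, 494.1, 713.4 and 642.5 on BN arrays 1 to 5. In LOU they were, from array 1 to 5, 662.3, 912, 745.1, 670.8 and 786.7. Of the BN arrays 4 lay below every LOU array, and BN array 4, at 713.4, lay inside the LOU range. The mean was 597 ± 84.4 (SD, n = 5) in BN and 755 ± 102 (n = 5) in LOU, a log2 difference of −0.34 with an interval from −0.66 to −0.03 (limma unadjusted p = 0.037, adjusted p = 0.338). LOU was thus 1.27-fold higher, and a difference of this size did not pass the test at this spread. Markers of platelets, which also hold Srgn, had summed signals of 283.1 to 370.9 on BN arrays and 342.8 to 628.5 on LOU arrays over 4 measured genes, of which 3 were above background on all arrays. The list's median log2 difference was 0.03, and 1 of its 4 genes was lower in BN. That gene, Pf4, the platelet chemokine stored on serglycin, was 157 ± 15.7 in BN and 272 ± 112 in LOU (n = 5 each, log2 −0.71, limma adjusted p = 0.229). The highest Srgn signal and the highest platelet marker sum were both on LOU array 2. With strain means removed, the Pearson correlation of Srgn with the platelet markers was 0.37 (exact permutation p = 0.316, adjusted p = 0.641). It was 0.16 without LOU array 2 and BN array 2. Over the 9 marker lists the Pearson values with Srgn ran from −0.51 for nerve to 0.57 for endothelial markers. Endothelial markers (exact permutation p = 0.119, adjusted p = 0.513) and adventitial fibroblast markers (0.50, exact permutation p = 0.158, adjusted p = 0.513) were thus above platelet markers. Without 2 arrays each they became −0.54 and 0.14. The part of platelets, endothelium or adventitia in the Srgn difference between strains was not tested.

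**Figure D2:**
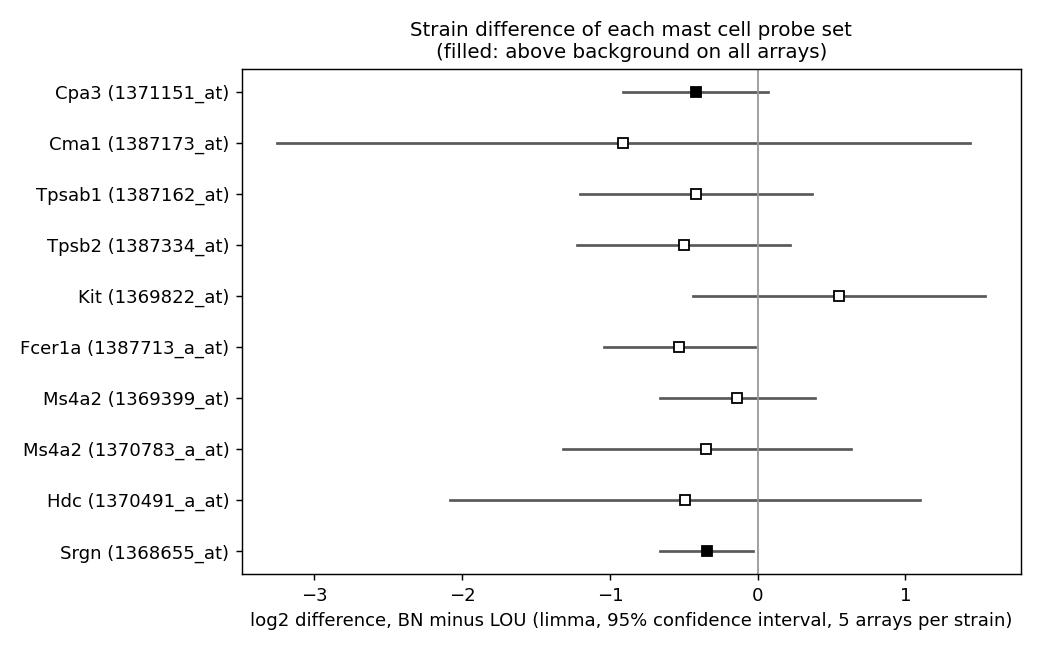
Log2 difference of BN minus LOU for each mast cell probe set (squares) with its 95% confidence interval from limma (lines), 5 arrays per strain. Filled squares are the probe sets above background on all 10 arrays, Cpa3 at −0.42 and Srgn at −0.34; the intervals of Cma1 and Hdc are the widest.

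No shared variation of the members over the arrays was detected. Each member above background on at least 5 arrays was set against Cpa3, on log2 signals with each strain's mean removed, over the 10 arrays. The Pearson correlations were 0.08 for Tpsb2, 0.01 for Fcer1a, 0.37 for the first Ms4a2 probe set and −0.09 for Srgn (exact permutation of arrays within strains, two-sided, p = 0.821, 0.97, 0.54 and 0.845, all 0.97 when adjusted over 4 relations). The Spearman correlations were 0.22, 0.19, 0.25 and 0.03 (exact permutation p = 0.555, 0.646, 0.557 and 0.948, adjusted 0.861 for the first 3 and 0.948 for Srgn). Without BN array 5 and LOU array 1, the arrays farthest from the Cpa3 median, the Pearson values became −0.60, 0.11, −0.09 and 0.51, so 3 of the 4 signs turned. The signals of Tpsb2, Fcer1a and Ms4a2 were near background and carry much noise, whereas Cpa3 and Srgn were above background on all 10 arrays. A low correlation over 10 arrays does not show that the transcripts come from different cells.

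Of 9 marker lists for other cell types, adipocyte markers had the highest Pearson correlation with Cpa3 over the arrays. The Cpa3 log2 signal was set against the mean log2 signal of each list, as was that of Srgn, which makes 18 relations. With strain means removed, the Pearson correlation with adipocyte markers was 0.78 (exact permutation p = 0.0157, adjusted p = 0.283) and the Spearman correlation 0.73 (p = 0.026, adjusted p = 0.234, exact permutation). Without BN array 5 and LOU array 4, the arrays farthest from the median of the adipocyte markers, the Pearson value was 0.84. BN array 5 had both the lowest Cpa3 signal, 49.4, and the lowest adipocyte marker sum, 2942, where the other 9 arrays ran from 3793.5 to 22201.4. With macrophage markers the Pearson correlation was 0.47 (exact permutation p = 0.0822, adjusted p = 0.513) and the Spearman correlation 0.81 (exact permutation p = 0.00292, adjusted p = 0.0525), and the Pearson value was 0.25 without LOU array 1 and BN array 5. None of the 18 relations passed after adjustment. These lists were fixed as markers of other cells, and setting Cpa3 against them was decided after the data were seen.

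**Figure D3:**
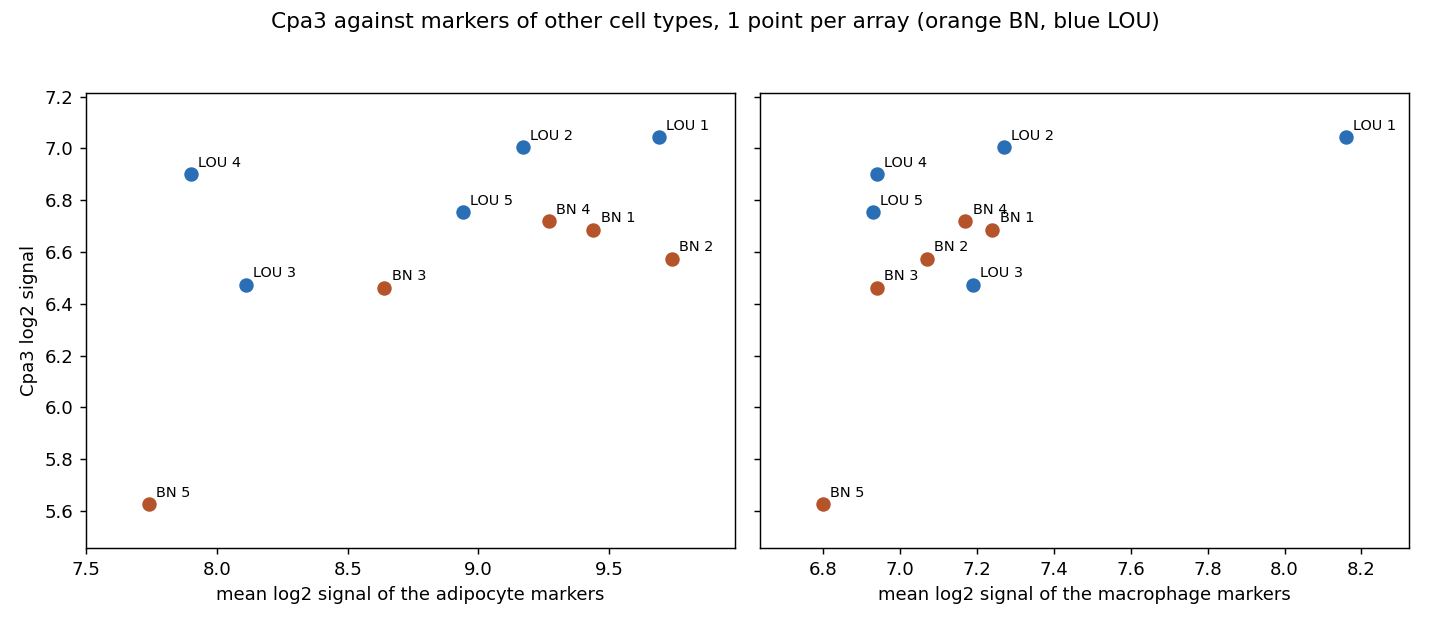
Cpa3 log2 signal (vertical) against the mean log2 signal of adipocyte markers (left) and macrophage markers (right), 1 point per array, BN in orange and LOU in blue. BN array 5 is at the lower left of both panels, and LOU array 1 is at the upper right of both.

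Among 8462 probe sets of other named genes that were above background on all 10 arrays, the 10 genes with the pattern most like Cpa3 had Pearson correlations of 0.91 to 0.96 with it, strain means removed. In order they were Cntfr, Slc1a3, Cfd, Usp9x, Pnrc1, Mark4, Chrm3, Mgst1, Lama3 and Pex19. Cntfr, the receptor subunit for ciliary neurotrophic factor, had a Pearson correlation of 0.96 and a Spearman correlation of 0.92. Slc1a3, a glutamate transporter, had 0.95 and 0.77, and its other probe sets had Pearson values of 0.78 and −0.28. Usp9x had 0.94 and 0.83, but its other probe sets had Pearson values of −0.55 and −0.75. Mark4 had 0.92 and 0.72, and its other probe set had a Pearson value of 0.01. For Usp9x and Mark4 the likeness thus holds for 1 probe set and not for the gene. Cfd, the adipocyte serine protease adipsin and a member of the adipocyte list, had 0.94 and 0.81. Its signal on BN array 5 was 310, against a BN mean of 1580 ± 869 (n = 5). These are the highest of 8462 values, so they are given without a p. No gene of the 10 stayed among the first 10 without BN array 5 and LOU array 1, and 2 stayed when strain means were kept.

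The other genes of mast cell biology were read from 9 lists holding 140 genes, of which 108 were on the array with 136 probe sets. None of these probe sets was called higher in BN and 1 was called lower, 0.735% against 0.788% of all probe sets. The median log2 difference over the 108 genes, each read from its brightest probe set, was −0.06. By role it was −0.51 for 11 other granule proteases, −0.10 for 17 genes of IgE receptor signalling and 0.09 for 10 genes of Kit signalling. It was 0.20 for 16 genes that make, load or break down amines and eicosanoids, 0.10 for 7 receptors of these mediators and 0.06 for 13 genes of heparin synthesis and granule membranes. For 12 genes of granule secretion it was −0.11, for 8 transcription factors −0.12 and for 14 surface receptors and cytokines −0.06. Only for the proteases was the list as far from the median of all probe sets as the members were, and of its 11 genes 1 was above background on all arrays and 3 on none.

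The called probe set read Lcp2, an adaptor that links the IgE receptor of mast cells, and the T cell receptor, to phospholipase C. Its BN signals of 3.7 to 10.9 were all at background, and the LOU signals were 29.9 to 55.1, of which 4 were above background (limma adjusted p = 0.00405). With BN signals under background set to background, LOU was 1.12-fold higher on the mean log2 signal, a bound without sampling error. The probe set was called under 18 of the 19 alternatives in which it was fitted. With signals under 32 set to 32, a level near most of its LOU signals, the call was lost (limma adjusted p = 0.559). A second Lcp2 probe set was not called (limma adjusted p = 0.0851), and the same reckoning gave 0.599 there, so no bound. Lcp2 also serves T cells and platelets, and the other members of IgE receptor signalling were not called.

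Mcpt1l1, chosen here after its values were seen, had the largest fitted difference among the granule protease genes. It encodes a chymase-like protease, and RefSeq lists rMCP-I among its names. Its signals were 6, 22.4, 3.6, 10.7 and 1.3 on BN arrays 1 to 5, none above background. On LOU arrays 1 to 5 they were 121.6, 160.8, 16.4, 41.5 and 28.9, and all but LOU array 3 were above background. With BN signals under background set to background, LOU was 1.56-fold higher on the mean log2 signal, a bound without sampling error. The difference did not pass (limma adjusted p = 0.138, 0.0791 to 0.472 under the alternatives). LOU arrays 1 and 2 gave the highest signals, as they did for Cma1, and LOU array 3 gave the lowest of its strain for both. For Mcpt1 RefSeq lists rMCP-II among the other names, so its probe set may be the one that reads Mcpt2, which could not be settled here. It showed no such pattern. It gave 64.1, 63.7, 3.4, 55.7 and 91.2 on BN arrays 1 to 5 and 37.1, 64.7, 42.2, 70.4 and 57.6 on LOU arrays 1 to 5 (limma adjusted p = 0.824), with BN array 3 the only array not above background. The chymase genes of chromosome 15 are near copies of each other, so these chymase values may mix several genes. Mcpt3, Mcpt4, Mcpt8, Mcpt9 and Mcpt10 were above background on at most 1 array each.

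**Figure D4:**
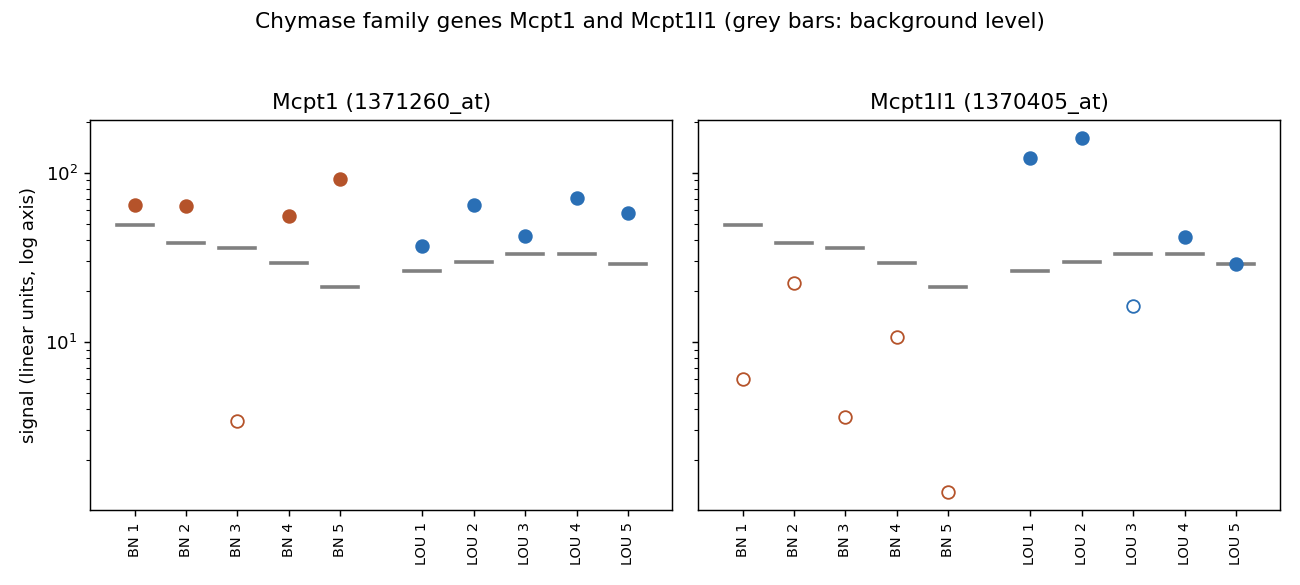
Signal of the chymase family genes Mcpt1 and Mcpt1l1 on each array, on a log axis, BN in orange and LOU in blue, with grey bars for each array's background level and open circles for signals not above it. Mcpt1l1 is below background on all 5 BN arrays and highest on LOU arrays 1 and 2, at 121.6 and 160.8.

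Among genes that mast cells share with other cells, the following did not pass the test, and several were above background on all arrays. Gata2, a transcription factor of mast cells and of endothelium, was 184 ± 59 in BN and 189 ± 16.5 in LOU (n = 5 each, log2 −0.09, limma adjusted p = 0.886). Mitf, which drives Kit and protease genes in mast cells, was 80 ± 24.9 against 103 ± 9.48 (log2 −0.42, limma adjusted p = 0.445). Hpgds, the prostaglandin D synthase of mast cells and macrophages, was 80.1 ± 8.66 against 82.4 ± 29 (log2 0.02, limma adjusted p = 0.975). The intervals of these differences ran from −0.53 to 0.36, from −0.90 to 0.06 and from −0.48 to 0.53, so changes within them were not excluded. Slc18a2, the vesicular amine transporter that loads histamine into granules and noradrenaline into nerve endings, was 171 ± 199 in BN and 115 ± 40.4 in LOU (log2 0.09, limma adjusted p = 0.959). Its spread in BN came from array 3, at 526.8, the array with the highest nerve marker sum. Without that array the difference turned to −0.44, and the part of nerve in that signal was not tested. Alox5, the enzyme that starts leukotriene synthesis, was above background on 3 arrays of each strain (log2 0.20, limma adjusted p = 0.787). The brightest probe set of Il1rl1, the receptor for interleukin 33, was above background on 3 BN arrays and 1 LOU array (log2 0.40, limma adjusted p = 0.761), and the histamine receptor gene Hrh1 on none.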

How the data were processed

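The deposited values are 1 array intensity per probe set on a linear scale; RMA appears in the submitters' processing notes with no version, but the values reach 22219.9 and all arrays share a trimmed mean (2% off each end) of 200.05 to 200.06, so they were taken as signals scaled to a common mean. For this work log2(signal) was computed, with the 4 values of 0 set to 0.1. All 57 control probe sets were removed and strain was tested on the remaining 15866 with limma 3.58.1 in R 4.3.3 (lmFit, eBayes, two-sided, Benjamini-Hochberg). The scripts were tested on simulated arrays, where 45.2% of changes of 1 and 79% of changes of 2 (log2) among 200 in 15866 probe sets were recovered. Gene symbols came from GEO's platform annotation, updated through gene identifiers (12748) or accessions (2) in RefSeq's GRCr8 table, with 33 kept as listed. A further 312 probe sets had several symbols and 2771 none, and these were tested but not named. Where a strain had no array above background, its mean was taken from the higher of background and signal on each array. A fold is then a bound, the mean log2 signal of the brighter strain against that mean. Such a bound is on the fitted value only and carries no sampling error. Named are all member probe sets, list genes past the test, 12 list genes fixed by interest (Ctsg was not on a named probe set) and the 10 genes most like Cpa3. The members and lists were chosen with earlier results of these data known. Alternatives are other scaling, filters, floors, variance models, a replicate block and arrays left out. Python 3.11.15, scipy 1.17.1 and matplotlib 3.10.9 were used.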

Additional observations from a re-analysis of the deposited data

Results flagged for a closer look

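In 4 of 20 groups of 5 signals (10 mast cell probe sets in each strain) 1 array stood apart from the others on the log2 scale by Dixon's criterion, which chance gives in about 1 of 20 such groups. Cpa3 on BN array 5, at 49.4, was far below the other BN arrays at 88.2 to 105.4. Tpsb2 on LOU array 3, at 93.2, was far above the other LOU arrays at 34 to 37.6. Hdc on the same LOU array 3, at 5.9, was far below the others at 28.4 to 47.5. Kit on LOU array 5, at 10.2, lay below the others at 12.3 to 12.6, all of them below background.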

How the results depend on the processing

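No mast cell probe set was called by limma under any of the 20 alternatives, with adjusted p-values of at least 0.209 (the filter on dim probe sets left out 8 of the 10). The signs of Cpa3, Cma1, Tpsb2, Kit, Fcer1a, Hdc and Srgn held wherever they were fitted, with −0.51 to −0.22 for Cpa3 and −0.41 to −0.27 for Srgn. With 1 array left out, the first Ms4a2 probe set ran from −0.28 to 0.03 and the second from −0.63 to 0.01, turning sign without BN array 1 and without BN array 3, and the second was 0.08 without BN array 3 and LOU array 1. Cpa3 correlations changed sign without the 2 arrays farthest from the Cpa3 median for Tpsb2 (−0.60), Ms4a2 (−0.09) and Srgn (0.51), and for Srgn with strain means kept (0.33). With a fixed level of 50, 1 mast cell probe set was above background on all arrays, since Cpa3 was at 49.4 on BN array 5. Over all probe sets, 125 calls became 253 without the dimmest 40%, 204 with a pseudocount of 16, 242 with a variance trend, 75 without BN array 3 and LOU array 1, and 63 to 127 with 1 array left out, the values of 63 to 79 arising when LOU array 2, 3, 4 or 5 or BN array 2 or 4 was the one removed; beyond the fewer arrays or probe sets, the cause was not tested. With the replicate number as a block 23 were called and 0 mast cell probe sets; same-numbered arrays did not deviate together (r of −0.0453 to 0.0147, and −0.0588 to 0.169 over probe sets above background on all arrays), and 0 of 10 arrays correlated best with their own number, so the numbers were not taken to pair the arrays. Signal over background limits all members but Cpa3 and Srgn.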
